A study of Mus musculus with 10 samples.

Results

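The lungs were examined for 10 imprinted genes that regulate fetal growth: Igf2, H19, Dlk1, Meg3, Peg3, Plagl1, Cdkn1c, Mest, Grb10 and Peg10. These genes were selected by their symbols from a table of 54532 genes, and each symbol matched 1 gene. The samples were whole lungs of wild-type C57/BL6 mice taken at postnatal day 14 (P14). In the increased pulmonary blood flow (IncPBF) group, 5 lungs came from pups in which the abdominal aorta had been punctured into the inferior vena cava at P7, so that a fistula formed. In the sham group, 5 lungs came from pups that went through the same laparotomy at P7 without the puncture. Both groups were therefore anesthetized, operated on and returned to their mothers, and no unoperated lungs and no lungs of other ages were measured. The labels give no sex for the pups, which were male or female according to the study's methods. The lungs labelled as replicates were taken as separate animals, and the IncPBF lungs are numbered here as in the deposited table.

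At P14, 5 of the 9 genes tested had higher RNA levels in the IncPBF group than in the sham group, against 16.1% of all genes tested. A lower level was found for 1, against 16.2% of all genes tested. H19 was 3.47 times, Dlk1 4.34 times, Mest 2.08 times, Peg10 2.00 times and Grb10 1.34 times the sham mean. Cdkn1c, which encodes the cyclin-dependent kinase inhibitor p57, was 1.55 times lower. Meg3, Peg3 and Plagl1 did not pass the test, and Igf2 was near the limit of detection in both groups and was below the minimum for the test. The groups nearly coincided with the expression of sex-linked genes. With adjustment for the sex-linked RNA Xist, H19, Mest and Cdkn1c still passed, and Dlk1, Peg10 and Grb10 did not. That adjustment called 328 of all 15388 genes tested higher and 413 lower. Its estimates rest on 1 IncPBF lung, so it cannot separate the surgery from the sex chromosomes.

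Imprinted genes are expressed mainly from 1 parental allele, which is set by DNA methylation laid down in the germ line. Many belong to clusters in which a protein-coding growth factor on the paternal allele is paired with a non-coding RNA on the maternal allele, such as Igf2 with H19 and Dlk1 with Meg3. Several are abundant in fetal organs, the lung included, and decline together after birth as growth slows. Paternally expressed members tend to promote growth and maternally expressed members tend to restrain it. The mice were of 1 inbred strain, and the RNA measured here does not show from which allele it came.

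H19 and Mest also carry microRNAs, small RNAs that pair with target mRNAs mainly through bases 2 to 8, the seed. They are shown because these 2 genes had the lowest adjusted p values of the members. The sequences were taken from RefSeq on GRCm38.p6, with the seed in capitals. Mir675 lies in an exon of H19 on the minus strand, at chr7:142577064-142577147. Mir335 lies in an intron of Mest on the plus strand, at chr6:30741299-30741396. The 4 mature microRNAs share no seed.
miR-675-5p: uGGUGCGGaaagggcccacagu
miR-675-3p: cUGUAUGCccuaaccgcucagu
miR-335-5p: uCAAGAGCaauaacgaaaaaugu
miR-335-3p: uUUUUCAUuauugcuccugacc
The libraries were made from long RNA, and they do not measure mature microRNAs. The hairpin entry of Mir675 had 0 fragments in each lung, and that of Mir335 had at most 5.

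Promoter sequences from RefSeq were found for 7 of the 10 members, in 14 windows that run from 250 bases before to 50 bases after a start. The 250 bases before 1 start each of Dlk1, Mest and Grb10 are printed, because these 3 genes differed between the groups and have promoter entries. CpG dinucleotides, the sites at which imprinted regions are methylated, are in capitals, and each sequence runs 5′ to 3′ on the strand of its gene. The windows are chr12:109452573-109452822 on the plus strand for Dlk1, chr6:30737800-30738049 on the plus strand for Mest and chr11:12037421-12037670 on the minus strand for Grb10.
Dlk1: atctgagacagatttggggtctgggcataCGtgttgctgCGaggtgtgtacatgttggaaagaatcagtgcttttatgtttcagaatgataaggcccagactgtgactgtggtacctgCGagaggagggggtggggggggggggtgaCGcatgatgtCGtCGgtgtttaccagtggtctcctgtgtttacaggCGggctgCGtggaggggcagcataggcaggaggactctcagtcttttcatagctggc
Mest: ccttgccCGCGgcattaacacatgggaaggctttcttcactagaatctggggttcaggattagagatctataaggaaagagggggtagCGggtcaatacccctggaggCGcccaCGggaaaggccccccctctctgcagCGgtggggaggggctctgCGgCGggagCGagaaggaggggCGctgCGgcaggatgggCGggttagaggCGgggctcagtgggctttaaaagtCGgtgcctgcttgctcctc
Grb10: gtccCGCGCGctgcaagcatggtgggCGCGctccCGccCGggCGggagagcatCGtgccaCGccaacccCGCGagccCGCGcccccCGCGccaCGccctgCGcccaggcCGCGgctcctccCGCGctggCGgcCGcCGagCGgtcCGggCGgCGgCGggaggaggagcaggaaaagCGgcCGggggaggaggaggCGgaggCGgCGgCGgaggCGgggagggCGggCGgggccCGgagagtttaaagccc
At the printed starts, the full 300-base window of Grb10 was 80.0% GC and held 45 CpG, that of Mest 62.7% and 17, and that of Dlk1 55.7% and 9. At other starts, Grb10 had a window of 52.3% GC with 9 CpG. Mest had other windows of 59.3% with 8 CpG and 62% with 17. Over all promoter windows of this length the medians were 52.7% GC and 7 CpG. The core letters bound by Plagl1, GGGGCCCC, occurred in 1.08% of the 32851 windows, counted on both strands, and among the members only in that of Peg3. A TATA box, TATAAA, occurred in 13.6% of all windows, and among the members only in 1 window of Meg3. These are matches of letters and do not show binding or methylation, neither of which was measured.

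Bulk RNA-sequencing gave 16103423 to 20318525 fragments on genes per lung. Values were deposited as FPKM, which divides the fragments counted on a gene by gene length and library size and is thus a scale on which levels of different genes can be compared. Groups were compared with limma, a linear model fitted across all genes, on log2(FPKM + 0.1) of the 15388 genes with a mean of at least 0.5 FPKM. A gene was called at a Benjamini-Hochberg adjusted p under 0.05, and log2 differences are IncPBF minus sham on this scale, which understates changes of low genes. In whole tissue, fewer cells of a type and less RNA per cell cannot be told apart. Xist, transcribed from the inactive X chromosome, was at 52.4 to 66.5 FPKM in 4 IncPBF lungs and at 0.0770 FPKM or less in the other 6 lungs. The Y-linked gene Ddx3y was at 18.6 to 24.6 FPKM in those 6 lungs and at 0.00926 FPKM or less in the 4. Group and these sex-linked genes therefore coincide except in IncPBF lung 1, and for most lungs the surgery and the sex chromosomes cannot be told apart.

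The labelled tissue was checked against lists of marker genes. Lung epithelial markers summed to 11590 to 14170 FPKM against 14190 to 17340 FPKM in sham lungs, with 6 of 8 genes lower. Lung endothelial markers were lower for 4 of 7 genes and fibroblast markers higher for 4 and lower for 3 of 14 genes. Of all tested genes, 16.1% were called higher and 16.2% lower, and the fibroblast share lower lay near this. Fibroblast markers summed to 3893 to 4140 FPKM against 3867 to 4890 FPKM in sham lungs. Tissues next to the lung that are known to express several of these imprinted genes were looked for in the same way. Cartilage markers summed to at most 0.516 FPKM in any lung, and none of the 6 reached the minimum for the test. Skeletal muscle markers summed to 1.90 to 11.1 FPKM with IncPBF against 1.73 to 2.58 FPKM in sham lungs. Heart muscle markers summed to 32.4 to 98.0 FPKM and to 7.53 to 46.2 FPKM, in the same order. Of these markers limma called 0 of 3 tested for skeletal muscle and 0 of 5 for heart muscle, against 32.3% of all tested genes. At an unadjusted p under 0.05 limma counted 1 and 0 of them, and limma-voom on the recovered fragments 1 and 1, with 0 called after adjustment. Adipose markers summed to 0.693 to 2.59 FPKM and 0.446 to 1.43 FPKM, and thymus markers to 1.63 to 2.38 FPKM and 1.59 to 2.44 FPKM. Mesothelial markers, which mark the lung surface, were lower for 3 of 3 tested genes and summed to 19.5 to 43.4 FPKM against 38.5 to 98.0 FPKM. Nppa of heart muscle and Ptcra of thymus were at 0 in 8 of 10 lungs, and Adipoq of adipose tissue in 6. Other markers of these tissues, Myl7, Rag1 and Plin1, were above 0 in every lung. Myl7 of heart muscle was at 0.0877 to 11.8 FPKM with IncPBF and 0.443 to 2.07 FPKM in sham lungs. Of skeletal muscle, Acta1 reached 4.23 FPKM with IncPBF and 0.598 FPKM in sham lungs, and Ckm 0.843 and 0.146 FPKM. With the mean of the fibroblast markers as a covariate, the 6 called imprinted growth genes kept their calls. These markers moved in both directions, with a median log2 difference of -0.095, so their mean cannot stand for the share of fibroblasts. The part of fibroblasts and of other cell types in the results on the imprinted genes was not tested.

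In the sham lungs the levels of the members differed widely. By mean FPKM they stood in the order Cdkn1c, Grb10, Peg3, Mest, Plagl1, H19, Meg3, Peg10, Dlk1 and Igf2, from 51.9 to 0.0781 FPKM. Cdkn1c lay above 94.5% of the tested genes and H19 above 56.5%. Grb10 and Peg3 overlapped, as did Plagl1 and H19, and the other neighbours did not. In the IncPBF lungs the order was Grb10, Mest, Cdkn1c, H19, Peg3, Plagl1, Meg3, Peg10, Dlk1 and Igf2. There the ranges of Grb10, Mest and Cdkn1c overlapped from neighbour to neighbour, as did those of H19 and Peg3, of Meg3 and Peg10, and of Peg10 and Dlk1. Cdkn1c thus stood below Grb10 and Mest in the IncPBF lungs but above both in the sham lungs, and H19 stood below Peg3 and Plagl1 in the sham lungs but above both in the IncPBF lungs.

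**Figure D1:**
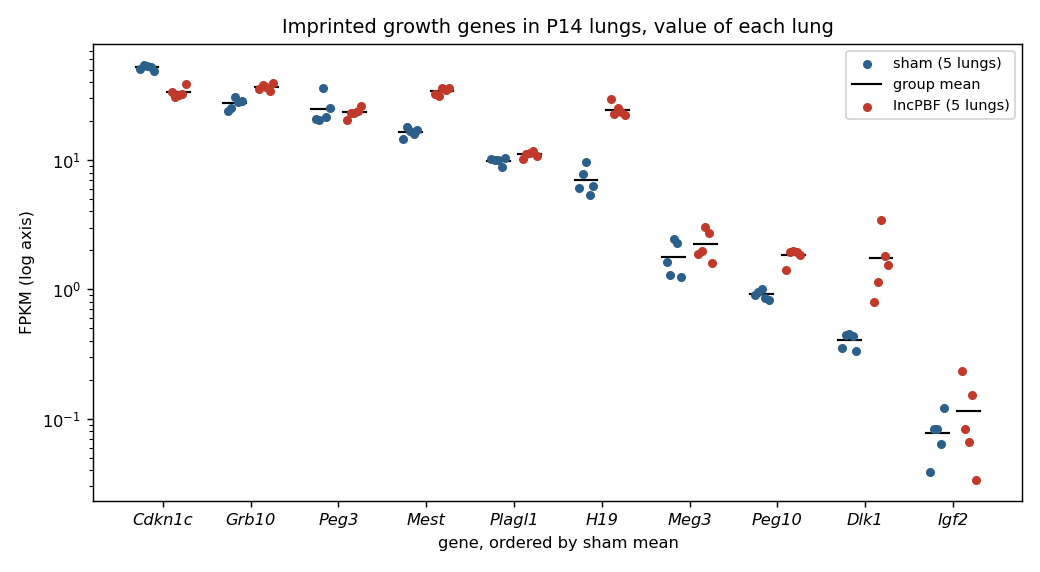
FPKM of the 10 imprinted growth genes in each of the 5 sham and 5 IncPBF lungs, with FPKM on a vertical log axis, the genes ordered by sham mean, points for lungs and lines for the group mean. The 5 IncPBF lungs lie above all sham lungs for H19, Mest, Dlk1, Peg10 and Grb10 and below them for Cdkn1c, and the groups overlap for Igf2, Meg3, Peg3 and Plagl1.

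Igf2 encodes insulin-like growth factor 2, the main growth factor of the fetus, on the minus strand of chromosome 7 from 142650766 to 142666816 (GRCm38). It was at 0.235, 0.0839, 0.0662, 0.152 and 0.0337 FPKM in IncPBF lungs 1 to 5. In sham lungs 1 to 5 it was at 0.0389, 0.0835, 0.0835, 0.0640 and 0.12 FPKM. The groups overlapped and rested on 4 to 26 fragments per IncPBF lung and 4 to 12 per sham lung. The means were 0.114 ± 0.0802 and 0.0781 ± 0.0299 FPKM (SD, n = 5 each), which did not differ by a two-sided exact permutation test over the lungs (p = 0.405). Igf2 was below the minimum for the fit. Without the minimum, limma gave a log2 difference of 0.21 ± 0.26 (SE) and an adjusted p of 0.668 over 31400 genes, so a change was not detectable at this depth.

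A property of the table limits the level of Igf2. The readthrough gene Gm49394, annotated on the same strand from 142650769 to 142669942, shares 3596 of the 5723 exonic bases of Igf2 and was listed at 0 in all 10 lungs. How the counting treated fragments that fit both genes is not given in the sources used here. If only the 2127 bases not shared could receive fragments, the level of Igf2 per length would be 0.0906 to 0.632 FPKM with IncPBF and 0.105 to 0.324 FPKM without. The exact permutation test on FPKM does not depend on this length. The limma fit and the ratios add 0.1 FPKM and would change with it, and they were not rerun with the shorter length.

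H19, on the minus strand of chromosome 7 from 142575529 to 142578143, is a long non-coding RNA of the maternal allele that restrains fetal growth and is abundant in embryonic tissues. It was at 29.4, 22.5, 25.3, 23.4 and 22.1 FPKM in IncPBF lungs 1 to 5. Sham lungs 1 to 5 were at 6.07, 7.81, 9.70, 5.40 and 6.35 FPKM. Every IncPBF lung was thus more than double the highest sham lung. The means were 24.5 ± 2.99 and 7.07 ± 1.71 FPKM (SD, n = 5 each), with 995 to 1399 and 254 to 449 fragments. The log2 difference was 1.81 ± 0.14 (SE) with a limma adjusted p of 1.55e-05. IncPBF lung 1, the IncPBF lung with low Xist, had the highest level. Mrpl23, a neighbour of H19 that encodes a mitochondrial ribosomal protein, was also higher, by 0.38 on the log2 scale (limma adjusted p = 0.00606), but not with log2 Xist as a covariate (0.252).

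Dlk1, on the plus strand of chromosome 12 from 109452823 to 109463336, encodes a membrane protein related to the Notch ligands that keeps progenitor cells undifferentiated. The IncPBF lungs were at 0.795, 1.14, 3.45, 1.82 and 1.54 FPKM. Levels in sham lungs 1 to 5 were 0.355, 0.441, 0.451, 0.435 and 0.335 FPKM. The groups did not overlap, but the IncPBF lungs varied far more than the sham lungs, with lung 3 the highest and lung 1 the lowest. The means were 1.75 ± 1.03 and 0.403 ± 0.054 FPKM (SD, n = 5 each), from 87 to 361 and 33 to 48 fragments. The log2 difference was 1.73 ± 0.31 (SE; limma adjusted p = 0.00193), and without IncPBF lung 3 it was 1.45.

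Meg3 is the maternally expressed long non-coding RNA of the same cluster, downstream of Dlk1 from 109541001 to 109571726. The IncPBF lungs were at 1.86, 1.96, 3.01, 2.73 and 1.60 FPKM. In the sham group the 5 levels were 1.63, 1.29, 2.44, 2.28 and 1.24 FPKM. The groups overlapped over most of their range, and the log2 difference of 0.33 ± 0.22 (SE) did not pass (limma adjusted p = 0.291). Rian, another maternally expressed RNA of this cluster, had a log2 difference of 0.42 (limma adjusted p = 0.0653), and it passed without IncPBF lung 1 (adjusted p = 0.0481), sham lung 3 (0.0260) or sham lung 4 (0.0421), with the replicate block (0.0431) and with limma-voom on fragments (0.0330). The adjusted p of Rian with log2 Xist as a covariate was 0.870. Rtl1, Mirg and Dio3 of the cluster were below the minimum for the test.

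Mest, on the plus strand of chromosome 6 from 30723547 to 30748465, encodes a paternally expressed enzyme of the hydrolase fold that is abundant in fetal mesenchyme. It was at 32.2, 31.4, 36.2, 35.1 and 35.8 FPKM in the IncPBF lungs. Sham levels were 14.4, 17.9, 16.8, 15.8 and 17.1 FPKM. The groups stood far apart with little spread in either. The means were 34.1 ± 2.17 and 16.4 ± 1.36 FPKM (SD, n = 5 each), and the log2 difference of 1.05 ± 0.07 (SE) had the lowest adjusted p of the members (limma, 4.95e-06). Mest shares 912 of its 3945 exonic bases with Copg2, a coat protein gene on the opposite strand, and whether counting used the strand is not given in the sources used here. Copg2 had a log2 difference of 0.12 (limma adjusted p = 0.12).

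Peg10, on the plus strand of chromosome 6 from 4747306 to 4760517, derives from a retrotransposon and is needed for the placenta. It was at 1.42, 1.94, 2.00, 1.93 and 1.86 FPKM in the IncPBF lungs. In the sham lungs it was at 0.911, 0.955, 1.01, 0.855 and 0.836 FPKM. IncPBF lung 1 stood below the other 4 IncPBF lungs but above every sham lung. The means were 1.83 ± 0.235 and 0.914 ± 0.0723 FPKM (SD, n = 5 each), from 183 to 257 and 97 to 127 fragments. The log2 difference was 0.92 ± 0.12 (SE; limma adjusted p = 0.00025). Sgce, the paternally expressed sarcoglycan gene next to it, had a log2 difference of -0.01 (limma adjusted p = 0.903), whose sign changed with the scaling.

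Plagl1, on chromosome 10 from 13060504 to 13131694, encodes a zinc finger transcription factor of the paternal allele that is known to regulate other imprinted genes. It was at 10.2, 11.1, 11.3, 11.8 and 10.8 FPKM in the IncPBF lungs. Sham lungs 1 to 5 were at 10.1, 9.99, 9.97, 8.85 and 10.4 FPKM. In all but IncPBF lung 1 the IncPBF level exceeded the highest sham lung, by a small margin. The log2 difference of 0.16 ± 0.06 (SE) did not pass (limma adjusted p = 0.0603), and it passed under an equal total per lung (adjusted p = 0.0329), quantile normalization (0.0398) or without IncPBF lung 1 (0.0429). Its neighbours Sf3b5 (0.32), a splicing factor subunit, and Ltv1 (0.36), a ribosome assembly factor, were higher. Sf3b5 lost its call in 8 of the 10 fits that left out a lung (adjusted p from 0.0546 to 0.0866), and also without the filter (0.0700) and without the trend (0.0501). Neither passed with log2 Xist as a covariate (limma adjusted p = 0.482 for Sf3b5 and 0.492 for Ltv1), and IncPBF lung 1 lay inside the sham range for Ltv1.

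Peg3, on chromosome 7 from 6703892 to 6730431, encodes a paternally expressed zinc finger protein with roles in growth and maternal behaviour. The IncPBF lungs were at 20.6, 23.0, 23.0, 23.8 and 26.3 FPKM. Levels in sham lungs 1 to 5 were 20.9, 20.6, 35.9, 21.4 and 25.1 FPKM. Sham lung 3 stood above all the others, and the remaining lungs intermingled. The log2 difference was -0.06 ± 0.14 (SE; limma adjusted p = 0.794) and 0.09 without sham lung 3.

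Of the maternally expressed growth inhibitors, Cdkn1c lies on chromosome 7 from 143458339 to 143461050 and holds cells out of division. It was at 33.6, 30.8, 31.7, 32.3 and 38.7 FPKM in the IncPBF lungs. In the sham group the 5 levels were 50.3, 54.5, 53.6, 52.2 and 48.9 FPKM. Every IncPBF lung was below every sham lung, and it was the only member called lower. The means were 33.4 ± 3.10 and 51.9 ± 2.30 FPKM (SD, n = 5 each), from 1135 to 1637 and 1736 to 2092 fragments. The log2 difference was -0.64 ± 0.06 (SE; limma adjusted p = 5.98e-05). In its cluster, the channel gene Kcnq1 (-0.42) and Tssc4 (-0.34) were also lower, against 16.2% of all tested genes. The other 4 of the 7 tested genes of this cluster were not called. With log2 Xist as a covariate, Kcnq1 (limma adjusted p = 0.134) and Tssc4 (0.113) lost their calls.

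Grb10, on chromosome 11 from 11930508 to 12038683, encodes an adaptor protein that binds the insulin and IGF1 receptors and restrains their signalling. It was at 35.1, 37.8, 36.6, 34.2 and 39.6 FPKM in the IncPBF lungs. Sham levels were 24.1, 25.3, 30.6, 28.3 and 28.7 FPKM. The groups were separate by a narrow gap between IncPBF lung 4 and sham lung 3. The means were 36.7 ± 2.15 and 27.4 ± 2.64 FPKM (SD, n = 5 each), and the log2 difference was 0.42 ± 0.07 (SE; limma adjusted p = 0.00126). Its imprinted neighbour Ddc, which encodes the enzyme that makes dopamine and serotonin, was higher by 0.83 on the log2 scale (limma adjusted p = 0.00226), and Cobl, an actin nucleator of this cluster, was lower, at -0.46 (0.0426). Cobl lost its call in 7 of the 10 fits that left out a lung, with adjusted p values from 0.0647 to 0.0993, and in 4 further fits, without the filter (0.0870), with an equal total per lung (0.0656), without the trend (0.0549) and with the fibroblast mean as a covariate (0.0822). Neither passed with log2 Xist as a covariate (adjusted p = 0.5001 for Cobl and 0.0762 for Ddc).

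Over the set, 5 of the 9 tested members were called higher, against 16.1% of all tested genes, and 1 was called lower, against 16.2%. The median log2 difference of the 9 members was 0.42, against 0.01 over all tested genes. The groups did not overlap for these 6 members (two-sided exact permutation p = 0.00794 each, the smallest p that 5 against 5 lungs can give), which was so for 23.2% of all tested genes. Of the 5 tested growth-promoting members, all of the paternal allele, 3 were higher and the other 2 were not called. Of the 4 growth-restraining members, all of the maternal allele, 2 were higher and 1 was lower.

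The sex-linked genes moved with the groups, and each call was examined beside them. IncPBF lung 1, with low Xist as in the sham lungs, lay outside the sham range on the called side for 6 of the 6 called members. This follows from the lack of overlap between the groups given above and is no separate evidence. With log2 Xist as a covariate, H19 (log2 difference 2.04, limma adjusted p = 0.00244), Mest (0.98, 0.00264) and Cdkn1c (-0.62, 0.0184) still passed. Dlk1 (0.83, 0.321), Peg10 (0.59, 0.0792) and Grb10 (0.36, 0.139) did not. These estimates rest on IncPBF lung 1 against the sham lungs, since it is the only IncPBF lung that shares their Xist level. The differences within the 6 lungs with low Xist, 2.07 for H19, 0.97 for Mest, -0.62 for Cdkn1c, 0.84 for Dlk1, 0.59 for Peg10 and 0.36 for Grb10, use the same lung and are no separate evidence. With 1 IncPBF lung there, the spread within that group was not measured. For Dlk1, both estimates were under 0.5 times that over all lungs on the log2 scale.

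**Figure D2:**
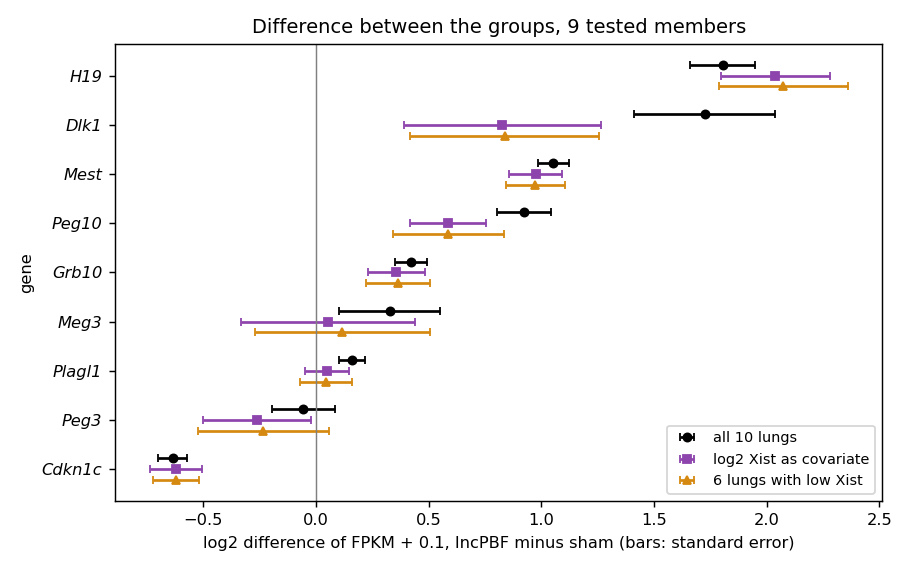
Log2 difference in FPKM (IncPBF minus sham) of the 9 tested members with its standard error, on a horizontal log2 axis, over all 10 lungs, with log2 Xist as a covariate, and in the 6 lungs with low Xist. Mest (1.05, 0.98 and 0.97) and Cdkn1c (-0.64, -0.62 and -0.62) lie close together in the 3 fits and H19 lies at 1.81, 2.04 and 2.07, while Dlk1 moves from 1.73 to 0.83 and 0.84. The latter 2 fits rest on the same IncPBF lung.

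Gene pairs were compared inside each lung, as ratios of FPKM + 0.1, so that a scaling of a whole lung has little effect. A family of 4 log2 ratios was tested by two-sided exact permutation, with p values adjusted over the 4. The log2 ratio of Dlk1 to Meg3 was -0.46 ± 0.53 with IncPBF and -1.85 ± 0.36 in sham lungs (SD, n = 5 each). All IncPBF lungs were above all sham lungs, a difference of 1.40 (exact p = 0.00794, adjusted 0.0159). Meg3 was not called (0.33), so this difference largely restates that of Dlk1 (1.73). IncPBF lung 1, with low Xist, had the lowest ratio of its group, -1.13, and the highest sham ratio was -1.36. No ratio was tested with log2 Xist as a covariate. The log2 ratio of Igf2 to H19 was -6.92 ± 0.41 against -5.32 ± 0.34, a difference of -1.60 (exact p = 0.00794, adjusted 0.0159), again without overlap. The ratio of Igf2 to its clearance receptor Igf2r, itself imprinted, was -6.68 ± 0.59 against -6.82 ± 0.28 and did not pass (exact p = 0.675). The ratio of Igf2 to Igf1 was -6.36 ± 0.55 against -5.21 ± 0.26, a difference of -1.15 (exact p = 0.0159, adjusted 0.0212), and lost its call with a pseudocount of 0.01. Igf2 was below the added 0.1 FPKM in 7 of the 10 lungs, so the constant makes up much of the numerator of these ratios. The differences in Igf2 to H19 and Igf2 to Igf1 therefore largely restate those of H19 (1.81) and Igf1 (1.36) with the sign turned and do not show a change of Igf2.

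A further pair of ratios was chosen after the data were seen, because these genes share a promoter region or bases. Peg10 rose relative to Sgce by 0.93 on the log2 scale, and Mest rose relative to Copg2 by 0.93 (two-sided exact permutation p = 0.00794 each, adjusted over the 2 the same). Both sets of lungs were without overlap. Sgce (-0.01) and Copg2 (0.12) were not called, so these ratios largely restate the differences of Peg10 (0.92) and Mest (1.05) and are no separate evidence.

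**Figure D3:**
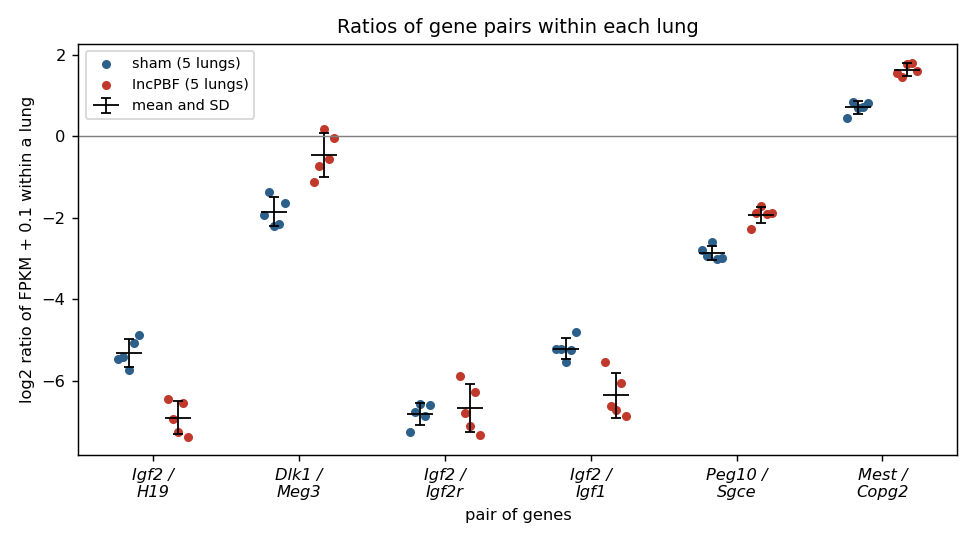
Log2 ratio of FPKM + 0.1 between the genes of each pair within a lung, on the vertical axis, for the 5 sham and 5 IncPBF lungs, with points for lungs and bars for the mean and SD. The groups do not overlap for Dlk1 to Meg3 (-0.46 against -1.85), Igf2 to H19 (-6.92 against -5.32), Peg10 to Sgce and Mest to Copg2, and they overlap for Igf2 to Igf2r and, at 1 lung, for Igf2 to Igf1.

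Of 45 other imprinted genes listed, 30 were tested, and 4 were higher, 5 lower and 21 not called, with a median log2 difference of -0.02. These shares lay near those of all tested genes, 16.1% higher and 16.2% lower. Those higher were Nnat (0.90), a small membrane protein of neurons, Ddc (0.83), Peg12 (0.52) and Ndn (0.35), a growth suppressor. Those lower were Zrsr1 (-0.57), a splicing factor, the cation transporter Slc22a3 (-0.51), Kcnq1 (-0.42), the non-coding RNA Peg13 (-0.41) and Tssc4 (-0.34). Nnat was at 31.8 ± 1.97 FPKM with IncPBF and 17.2 ± 2.86 FPKM in sham lungs (SD, n = 5 each; limma adjusted p = 0.000202). IncPBF lung 1 lay outside the sham range on the called side for 9 of these 9 genes. For all but Slc22a3 and Kcnq1 this follows from the lack of overlap between the groups. With log2 Xist as a covariate, 2 were still higher and limma called 0 lower, with 5 lower at an unadjusted p under 0.05. Of all 15388 tested genes, that fit called 328 higher and 413 lower.

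The insulin-like growth factor (IGF) pathway, through which Igf2, H19, Grb10 and Igf2r act, was examined as a list of 20 further genes, of which 18 were tested. Igf1, the growth factor that takes over from Igf2 after birth, was at 15.5 to 17.9 FPKM with IncPBF and 5.06 to 8.50 FPKM in sham lungs. The log2 difference of Igf1 was 1.36 ± 0.11 (SE; limma adjusted p = 1.96e-05). In total 3 of the 18 genes were higher, a share near the 16.1% of all tested genes, and 8 were lower, against 16.2%, with a median log2 difference of -0.25. The other genes higher were Pappa2 (1.42), a protease of IGF-binding proteins, and the binding protein Igfbp4 (0.36).

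Binding proteins and signalling genes made up most of those that were lower. Igfbp6, which prefers IGF2, was at 14.3 to 21.8 FPKM with IncPBF and 37.7 to 74.9 FPKM in sham lungs, a log2 difference of -1.67 ± 0.18 (SE; limma adjusted p = 7.34e-05). Igfbp3, the main carrier in serum, was at 9.51 to 12.2 FPKM and 27.4 to 35.8 FPKM, a difference of -1.50 ± 0.09. These 2 ranges were far apart in both cases. The protease Pappa (-1.23), its inhibitor Stc2 (-0.85), the RNA-binding protein Igf2bp2 (-0.63), Irs2 (-0.57), the insulin receptor Insr (-0.33) and Igfbp7 (-0.29) were also lower. Igf2r (0.07, limma adjusted p = 0.465) and Igf1r (-0.21, 0.0657) did not pass, but Igf1r passed without IncPBF lung 5 (adjusted p = 0.0490) or sham lung 3 (0.0363). Igfbp7 lost its call in 7 of the 10 fits that left out a lung (adjusted p from 0.0532 to 0.0800), and also without the filter (0.161), with quantile normalization (0.0842), the replicate block (0.0697) or the fibroblast mean as a covariate (0.0699). Insr lost its call without IncPBF lung 4 (0.0519) and with an equal total per lung (0.0537). With log2 Xist as a covariate, 1 gene of the list was higher and 3 were lower, against 328 and 413 of all 15388 tested genes. The groups did not overlap for the 11 called genes, so IncPBF lung 1 lay outside the sham range for each. A lack of overlap was found for 23.2% of all tested genes.

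Cdkn1c was set beside the genes of the cell cycle, which it holds back. All 21 tested cell cycle genes were higher in the IncPBF group, against 16.1% of all tested genes, with a median log2 difference of 0.85 and a range from 0.19 for Ccnd1, cyclin D1, to 1.31 for Cdk1, the mitotic kinase. Mki67, a marker of dividing cells, was at 7.95 to 11.8 FPKM with IncPBF and 4.17 to 6.29 FPKM in sham lungs. With log2 Xist as a covariate 7 of the 21 passed, where 328 of all 15388 tested genes were called higher. The groups did not overlap for any of the 21, so IncPBF lung 1 lay above the sham range for each. Over all tested genes, 12.0% were without overlap on the higher side. Ccnd1 lost its call without IncPBF lung 1 (limma adjusted p = 0.0515) or lung 2 (0.0526). Of the other cyclin-dependent kinase inhibitors 5 were tested. Cdkn1a (p21, -0.95), Cdkn2b (p15, -0.76) and Cdkn1b (p27, -0.27) were lower, as was Cdkn1c, and Cdkn2c (p18, 0.98) was higher. Of all tested genes, 16.2% were called lower and 16.1% higher. Cdkn1a (limma adjusted p = 0.114) and Cdkn1b (0.269) lost their calls with log2 Xist as a covariate, and Cdkn2b (0.0263) and Cdkn2c (0.00423) kept them. Cdkn2c was at 29.3 to 35.0 FPKM against 14.7 to 18.8 FPKM (limma adjusted p = 1.47e-05).

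**Figure D4:**
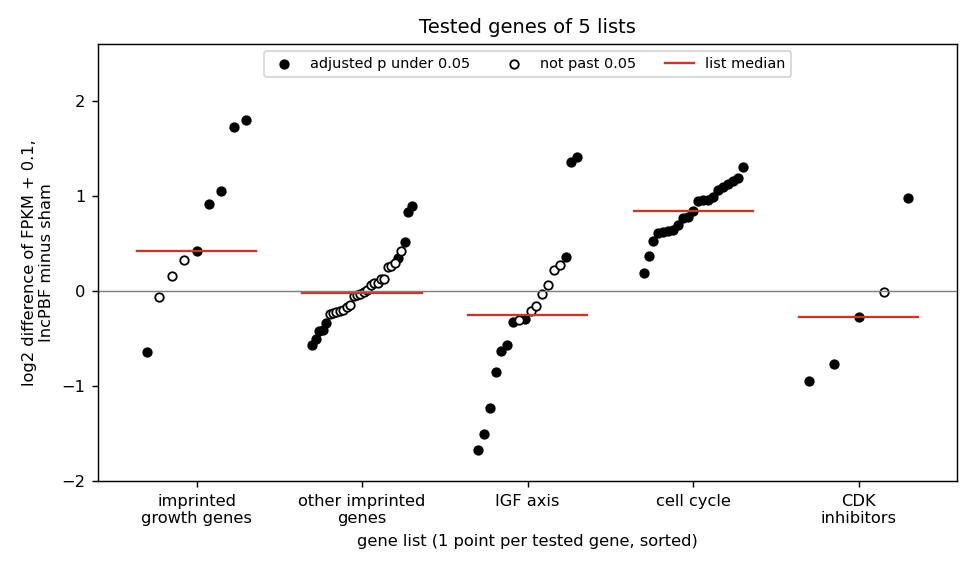
Log2 difference in FPKM (IncPBF minus sham) of each tested gene, on the vertical log2 axis, in the imprinted growth genes, the other imprinted genes, the IGF pathway, the cell cycle genes and the other cyclin-dependent kinase inhibitors, marked by whether limma called it. All 21 cell cycle genes lie above 0, while the 30 other imprinted genes lie around their median of -0.02.

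The genes whose pattern was most like those of H19 and Igf2 were sought by the root mean square difference of standardized log2 values over the 10 lungs, where 0 is an identical pattern. For H19 they were Dzip1 (0.145), Rnaseh2b (0.147) and Rdh10 (0.173). For Igf2 they were B230217C12Rik (0.476), Gm7628 (0.509) and Chrna1os (0.514), a poorer likeness.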

How the data were processed

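Whole lungs of 5 IncPBF and 5 sham mice were profiled by RNA-sequencing of total RNA with indexed libraries. The authors deposited FPKM values for all 10 lungs, with gene length. The submitters' processing notes list Bowtie 0.12.2 and the builds hg38, GRCm38 and mm10 without their roles, and the counting software and its use of strand are not given in the sources used here. Gene coordinates equalled those of GENCODE M21 on GRCm38 for 53499 of 54409 shared genes (98.33%). Columns of IncPBF lungs bear a different abbreviation from that in the titles, so they were tied to the group and not to single samples. Whole fragments per gene were recovered from FPKM and length. Fragment numbers cover counting error only.

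The test was limma 3.58.1 (lmFit, eBayes with a trend; R 4.3.3) on log2(FPKM + 0.1) of 15388 genes with a mean of at least 0.5 FPKM, without covariates. P values were adjusted over these genes. Single values and ratios were compared by exact permutation. The script was tested on simulated data. Where nothing says that the lungs are separate animals, p values measure only the spread between these samples. Genes were named if they are members, or called genes or cluster neighbours in the lists, and the lists, the members and the naming rule were chosen with earlier results of these data known. Sequences were read from RefSeq tables of GRCm38.p6 with Python 3.11.15 and pandas 2.3.3, and figures drawn with matplotlib 3.10.9. The alternatives were the pseudocount (1 or 0.01), the filter (1 FPKM or none), the scaling, the replicate block, eBayes without trend, limma-voom on fragments, log2 Xist or the fibroblast mean as covariate, and each lung left out. The 6 low-Xist lungs and the ratios Peg10 to Sgce and Mest to Copg2 were added after the data were seen.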

Additional observations from a re-analysis of the deposited data

Results flagged for a closer look

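In groups of 5 lungs, the lowest or the highest lung was compared with its nearest neighbour. A gap above 0.71 of the range of the group was found in 4 of 114 groups checked, where chance gives about 5%. Peg10 in IncPBF lung 1 was at 1.42 FPKM, and the nearest lung of the group was at 1.86 FPKM, a gap of 0.756 of the range. That lung is also the IncPBF lung with low Xist. Nnat in sham lung 1 was at 12.2 FPKM and the nearest sham lung at 17.5 FPKM, a gap of 0.723 of the range. In the IncPBF group, Mrpl23 was at 6.72 FPKM in its highest lung and 5.86 FPKM in the next, a gap of 0.821. Sf3b5 was at 12.8 FPKM and 11.3 FPKM, a gap of 0.795.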

How the results depend on the processing

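The 6 called members kept their direction in every alternative run. They kept their calls too, except that Dlk1, Peg10 and Grb10 lost theirs with log2 Xist as a covariate. This fit and that in the 6 lungs with low Xist both rest on 1 IncPBF lung. Calls in those 6 lungs are not counted here, because the IncPBF group has only 1 lung there. With the covariate, 2 members, 2 other imprinted genes, 1 IGF gene and 7 cell cycle genes were higher. In the same fit, 1 member, 0 other imprinted genes and 3 IGF genes were lower. Over all tested genes 328 were higher and 413 lower with the covariate, against 2480 and 2490. With an equal total per lung the split was 2921 to 1960. Leaving out each lung in turn gave 5 to 6 members higher and 1 lower, 4 to 6 other imprinted genes higher and 5 to 8 lower (8 without sham lung 4), 3 IGF genes higher and 6 to 9 lower, and 20 to 21 cell cycle genes higher. Single values changed sign for Peg3 (0.086 without sham lung 3, and from -0.1148 with any lung left out), Igf2r (-0.0103 in the low-Xist lungs), and Sgce, whose difference was 0.0217 with an equal total, 0.0058 with quantile normalization, 0.0135 with the fibroblast mean as covariate, and -0.0479 to 0.0208 when a lung was left out. The ratio of Igf2 to Igf2r was -0.0209 with a pseudocount of 1 and -0.0639 to 0.30 with a lung left out. Leaving out a lung gave -1.71 to -1.48 for Igf2 to H19, 1.24 to 1.57 for Dlk1 to Meg3 and -1.36 to -1.02 for Igf2 to Igf1, which was -1.05 and lost its call (adjusted exact p = 0.116) with a pseudocount of 0.01. The cause was not tested.

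Same-numbered lungs did not deviate together, with correlations over genes from -0.0675 to 0.0854, so the numbers were not taken as pairs. With the replicate block, 6 members were higher, Meg3 (adjusted p = 0.0358) among them, and 1 was lower. The ratios with the block were -1.60, 1.40 and -1.15 with adjusted p values of 0.0833, where the smallest exact p by sign changes is 0.0625, so that the design cannot reach a call. Without the filter and with a higher one, the members kept their calls. Igf2, with 4 to 26 fragments per lung, is limited by depth.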

Other observations

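Genes whose exons lie within another gene of the same strand were often listed at 0 in this table. Of 191 protein-coding genes with at least 90% of their exonic bases in another protein-coding gene of the same strand, 59.2% were at 0 in all 10 lungs, against 18.3% of all 22046 protein-coding genes. Gm49394, which overlaps Igf2, was at 0 in all 10 lungs. What caused this was not tested.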
